A study of Mus musculus with 6 samples.

Results

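Heparan sulfate proteoglycans and the enzymes that build, sulfate and edit their chains were followed as a module of 36 genes, taken by symbol from a table of 54532 mouse genes in which each of them had 1 row. The 36 were 12 core proteins (6 glypicans, 4 syndecans, *Hspg2* and *Agrn*) and 24 enzymes, of which 5 polymerize the chain, 4 N-deacetylate and N-sulfate it, 2 act as epimerase and 2-O-sulfotransferase, 3 add 6-O-sulfate, 7 add 3-O-sulfate and 3 edit the chain outside the cell. Bulk mRNA of cerebella from mice at postnatal day 1 (P1) was sequenced in 6 libraries. The 3 controls were Tox3f/f littermates and the 3 mutants were Nestin-cre;Tox3f/f conditional knockouts, so both groups carried floxed *Tox3* alleles, and only the mutants carried Cre, driven by the Nestin promoter in the nervous system. The transgene and the deletion cannot be told apart in this comparison. Animals of both sexes were present in both groups, as *Xist* lay at 1983 CPM or more in control 2, control 3 and mutant 2 and at 2.02 CPM or less in the other libraries.

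Heparan sulfate is a long sugar chain carried by a few core proteins, either held at the cell surface, as in glypicans and syndecans, or laid into the matrix, as in perlecan and agrin. After the chain is polymerized in the Golgi, sulfotransferases act on it in a set order, and the resulting pattern of sulfate groups sets which ligands it can hold, among them hedgehog, FGF and Wnt proteins. Granule neuron progenitors of the early postnatal cerebellum divide in response to Sonic hedgehog, a ligand that binds these chains.

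Total counts lay between 15391854 and 17178478 per library, and edgeR's filter on low counts kept 17505 genes with 99.8% of the counts. *Tox3* itself differed by −0.11 on the log2 scale (adjusted p = 0.252 from the quasi-likelihood test of edgeR, adjusted after Benjamini and Hochberg as are all adjusted p below). Its count spans exons that need not be deleted, so it does not check the labels. *Atoh1*, the transcription factor that defines granule neuron progenitors, fell from 501, 491 and 481 counts to 10, 4 and 4. Of the 8 markers of these progenitors all 8 were called lower, and their summed level went from between 1139 and 1253 CPM to between 448 and 489 CPM. Markers of Purkinje cells (5 of 8 called higher, 1555 to 1681 against 2159 to 2646 CPM summed), of the oligodendrocyte lineage (5 of 8, 553 to 585 against 713 to 764 CPM, though *Pdgfra*, its most abundant gene in the controls, went from 194 ± 11.3 to 142 ± 3.24 CPM, log2 fold change −0.45, adjusted p = 0.0003, edgeR), of astrocytes and Bergmann glia (2 of 8, 3765 to 3819 against 4797 to 5189 CPM) and of the meninges (3 of 9, 749 to 789 against 923 to 1144 CPM) stood higher in the mutants when summed over each list. Of the other marker lists, edgeR called 6 of 7 markers of proliferating cells lower. It called 1 of 6 of mural cells, 1 of 6 of microglia and the single tested hindbrain marker *Slc6a5* higher. Neither the 2 tested midbrain markers nor any of 5 erythrocyte markers were called, and DESeq2 called 0. Of these, 1 and 0 had an unadjusted p under 0.05 (edgeR). The 1 was the midbrain marker *Slc17a6*, at 84.5, 94.3 and 94.2 CPM in the controls and 67.2, 64.3 and 63.3 CPM in the mutants, without overlap. Its log2 fold change of −0.486 (adjusted p = 0.0005, edgeR) fell just short of the 0.5 needed for a call. The other midbrain marker, *Pou4f1*, overlapped between the groups at 0.27 (adjusted p = 0.510, edgeR). In bulk tissue, fewer cells of a type and less RNA per cell cannot be told apart, and the part that these shifts in cell type markers have in the differences given here was not tested. Choroid plexus markers differed widely between single libraries, with 1 of 6, *Otx2*, called lower and *Ttr* at 131, 101 and 67.7 CPM in the controls and at 181, 6.06 and 711 CPM in the mutants.

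Of the 36 genes, 34 passed the filter. *Hs3st3a1*, with 4, 10 and 3 counts in the controls and 13, 7 and 3 in the mutants, and *Hs3st6*, with 3, 1 and 4 against 8, 6 and 5, did not and were not tested. Calls needed a log2 fold change past 0.5 in either direction with an adjusted p below 0.01. *Ndst3* was the 1 gene of the module called lower, against 3.63% of all tested genes, and *Gpc3*, *Sdc4* and *Sulf2* were the 3 called higher, against 3.03%. At an adjusted p under 0.01 and any fold, 3 of the 34 were lower (*Ndst3*, *Glce* and *Gpc4*), where 7.24% of all tested genes were, and 7 were higher (*Gpc3*, *Sdc3*, *Sdc4*, *Agrn*, *Hs6st1*, *Hs3st4* and *Sulf2*), where 6.55% were. At an adjusted p under 0.05 and any fold, 3 were lower and 12 higher, beside 12.9% and 12.2% of all tested genes. The libraries of the groups did not overlap for 5 of the 34 with all mutants below all controls, beside 20.1% of all tested genes, and for 14 with all mutants above, beside 20.4%. The median log2 fold change was 0.091 over the 34 and −0.0070 over all tested genes. It was 0.24 over the 12 core proteins and 0.081 over the 22 tested enzymes. These 34 genes were not drawn at random, so the counts are given as a description beside the background.

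**Figure D1:**
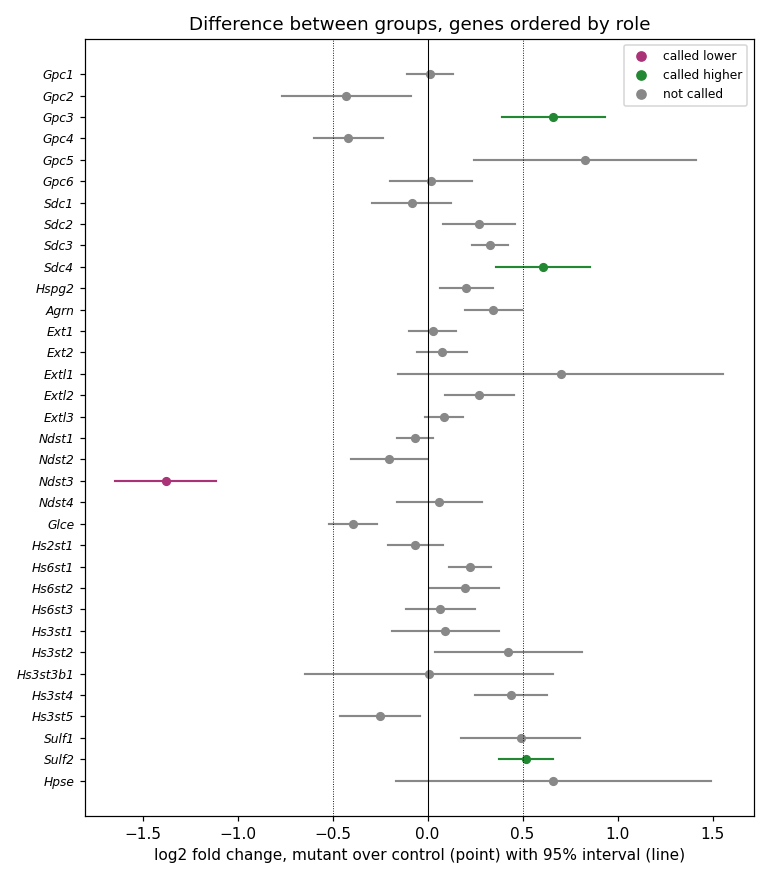
Log2 fold change of mutant over control (x axis) for the 34 tested genes (y axis), ordered from core proteins through chain synthesis and sulfation to editing, as points with 95% intervals from edgeR's fit as lines. Dotted lines mark the fold threshold of 0.5 in either direction. *Ndst3*, at −1.38, stands alone on the left, and the intervals of *Gpc3*, *Sdc4* and *Sulf2*, the genes called higher, all reach below 0.5.

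RefSeq windows before a transcription start were found for 27 of the 36 genes and for all 4 called ones. Those of the 3 genes called higher are shown because they lie near the 5′ end of these genes. Each holds the 250 bases before the RefSeq start farthest upstream, in GRCm38.p6 and on the gene's own strand, which is the minus strand in all 3. Both E-box hexamers CAGCTG and CAGATG, a kind of site that bHLH proteins such as Atoh1 bind, and the Gli-type 9-mer GACCACCCA were searched on both strands, and matches are in capitals. The windows of *Gpc3* (chrX:52613975-52614224) and *Sulf2* (chr2:166155684-166155933) lie outside the span of the gene in the deposited table. That of *Sdc4* (chr2:164443189-164443438) lies wholly inside it, with its RefSeq start 699 bases from the 5′ end of the deposited gene. The window of *Ndst3* is not shown, because it lies far inside the span of the gene, where the deposited table places no 5′ end.
Gpc3: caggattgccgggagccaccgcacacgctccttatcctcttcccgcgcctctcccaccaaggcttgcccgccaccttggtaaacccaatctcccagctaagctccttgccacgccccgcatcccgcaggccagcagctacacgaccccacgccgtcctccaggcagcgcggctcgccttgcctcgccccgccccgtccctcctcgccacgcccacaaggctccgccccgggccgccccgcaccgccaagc
Sdc4: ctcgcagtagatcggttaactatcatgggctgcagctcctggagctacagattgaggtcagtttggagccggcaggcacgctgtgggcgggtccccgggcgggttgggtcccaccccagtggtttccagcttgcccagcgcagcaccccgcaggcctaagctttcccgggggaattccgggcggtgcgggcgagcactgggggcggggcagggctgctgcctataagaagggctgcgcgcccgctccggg
Sulf2: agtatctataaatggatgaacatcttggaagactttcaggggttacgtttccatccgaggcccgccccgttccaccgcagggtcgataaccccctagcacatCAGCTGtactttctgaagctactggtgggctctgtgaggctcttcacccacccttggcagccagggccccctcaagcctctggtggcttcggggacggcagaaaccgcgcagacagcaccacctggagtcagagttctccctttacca
CAGCTG occurred once among these windows, in that of *Sulf2*, beginning 148 bases before the start, and neither CAGATG nor GACCACCCA was found in them. Among 32817 windows of this length in the table, 13% held CAGCTG, 14.5% CAGATG and 0.225% GACCACCCA. Of the 27 members with a window, 3, 1 and 0 held them in any of their windows. The latter is a count per gene and the former a share per window, so they are not directly comparable. The 3 windows had 71.6%, 68.0% and 57.2% G and C with 25, 19 and 10 CpG. A match of letters is a description and says nothing of binding.

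Glypicans are held to the outer membrane by a lipid anchor, and *Gpc1* was the most abundant by FPKM, the count per gene length and library size. Its level was 208, 185 and 189 CPM in the controls and at 199, 190 and 199 CPM in the mutants, CPM being the count scaled to a common TMM-normalized library size. The groups overlapped, and the log2 fold change was 0.015 (standard error, SE, 0.054; adjusted p = 0.871, edgeR). *Gpc3* (ENSMUSG00000055653, chrX:52272426-52613950), the glypican whose loss causes an overgrowth syndrome and which binds hedgehog proteins, was at 39.6, 38.9 and 29.7 CPM in the controls and at 64.4, 55.9 and 50.9 CPM in the mutants. Every mutant library lay above every control, of which control 3 was the lowest. The rise was 1.58-fold, a log2 fold change of 0.66 (SE 0.12, adjusted p = 0.0035, edgeR). The adjusted p was 0.0107 without control 3 and 0.0147 without mutant 1, which ended the call, and the log2 fold changes were then 0.54 and 0.57. Its neighbour *Gpc4* (ENSMUSG00000031119, chrX:52053021-52165252), which lies 107173 bases from *Gpc3* and whose protein is released by astrocytes and acts on synapses, went the other way. It was at 26.4, 27.6 and 27.6 CPM in the controls and 21.3, 20.9 and 19.0 CPM in the mutants, with no overlap. This fall of 25.1%, a log2 fold change of −0.42 (SE 0.082, adjusted p = 0.0048, edgeR), passed the p threshold but not that on the fold. Leaving out any single library other than mutant 2 brought the adjusted p above 0.01, to at most 0.0267 (edgeR).

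The FPKM of *Gpc3* was 1.48, 1.39 and 1.06 times that of *Gpc4* in the 3 controls and 2.98, 2.64 and 2.64 times in the 3 mutants. Of the FPKM summed over the 6 glypicans, *Gpc3* held 20.4%, 21.1% and 16.9% in the controls and 30.8%, 28.4% and 26.5% in the mutants, and *Gpc4* held 14.99% ± 1.123 against 10.4% ± 0.369 (SD, n = 3). *Gpc1* kept the largest share in both groups, at 54.7% ± 2.20 and 51.3% ± 2.35 (SD, n = 3). Both *Gpc3* and *Gpc4* are X-linked. In the libraries with high *Xist*, *Gpc3* was at 38.9 and 29.7 CPM in controls 2 and 3 and at 55.9 CPM in mutant 2. In the others it was at 39.6 CPM in control 1 and at 64.4 and 50.9 CPM in mutants 1 and 3. *Gpc4* was at 27.6 and 27.6 against 20.9 CPM in the former and at 26.4 against 21.3 and 19.0 CPM in the latter. The same order within both sets follows from the lack of overlap between the groups and says nothing about sex.

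*Gpc5*, a rare glypican at 0.433 ± 0.0616 FPKM in the controls and 0.771 ± 0.217 in the mutants (SD, n = 3), had the highest fitted log2 fold change of the module, 0.83, but an adjusted p of 0.0433 (edgeR) and no call. Its values were 2.15, 1.63 and 2.05 CPM against 4.56, 2.87 and 2.93 CPM, with mutant 1 far above the other mutants. *Gpc6*, which lies 400135 bases from *Gpc5*, overlapped between the groups at a log2 fold change of 0.017 (adjusted p = 0.919), and *Gpc2*, a glypican of developing neurons, also overlapped, at −0.43 (adjusted p = 0.0665).

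Syndecans span the membrane, and the neuronal *Sdc3* (ENSMUSG00000025743, chr4:130792537-130826319) had the highest FPKM of the whole module. Its level was 913, 891 and 923 CPM in the controls and at 1158, 1117 and 1150 CPM in the mutants, and no control reached a mutant. The rise of 25.6% was a log2 fold change of 0.33 (SE 0.042, adjusted p = 0.0005, edgeR), which lay under the fold threshold. By FPKM it went from 150.5 ± 2.66 to 189.7 ± 4.61 (SD, n = 3) and made up 88.7% and 89.0% of all syndecan FPKM in the 2 groups, so the sum of the 4 syndecans rose with it from 169.5 ± 2.06 to 213.1 ± 5.27 FPKM. *Sdc4* (ENSMUSG00000017009, chr2:164424247-164443887), the most widely expressed syndecan and a part of focal adhesions, was much scarcer, at 11.98, 13.2 and 13.2 CPM in the controls and 16.8, 20.6 and 21.1 CPM in the mutants. All mutants exceeded all controls, mutant 1 by the least. It rose 1.52-fold, a log2 fold change of 0.61 (SE 0.11, adjusted p = 0.0034, edgeR). That p was 0.0155, 0.0122 and 0.0126 without control 1, 2 and 3 and 0.0183 without mutant 3, and each of these removals ended the call, with the log2 fold change between 0.55 and 0.63. *Sdc2*, a syndecan of fibroblasts and synapses, stood at 33.4 ± 2.23 against 40.3 ± 2.82 CPM (SD, n = 3), for a log2 fold change of 0.27 (adjusted p = 0.0437, edgeR), and *Sdc1*, the epithelial syndecan, overlapped between the groups at −0.085 (adjusted p = 0.546).

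Among the 2 cores of basement membranes, *Agrn* (ENSMUSG00000041936, chr4:156165290-156197488), the agrin that clusters acetylcholine receptors at the neuromuscular junction, was the more abundant, with 83.5% of their FPKM in the controls and 84.8% in the mutants. Its level was 497, 436 and 474 CPM in the controls and at 635, 548 and 604 CPM in the mutants, without overlap. The log2 fold change was 0.35 (SE 0.067, adjusted p = 0.0044, edgeR), below the fold threshold. Without control 2, control 3, mutant 1 or mutant 3 the adjusted p lay between 0.0172 and 0.0226 (edgeR). *Hspg2*, the perlecan of vessels and meninges, was at 151, 142 and 136 against 177, 154 and 162 CPM, a log2 fold change of 0.20 (adjusted p = 0.0397, edgeR), and the lowest mutant was only just above the highest control. Markers of the endothelium, beside these, were called in 0 of 8 cases by edgeR and 0 by DESeq2, with 2 at an unadjusted p under 0.05, a median log2 fold change of −0.094 and a summed level of 390 to 432 against 386 to 402 CPM. Of 9 markers of the meninges, 3 were called higher, among them *Col1a1* at 0.85, and the median was 0.37. Another 3 had log2 fold changes below 0, and *Col3a1*, the most abundant of the 9, was at −0.012. Among the 6 mural markers, whose median was 0.12, *Vtn* was called higher (0.69). In that list 2 were below 0, among them *Rgs5*, the most abundant, at −0.14. The part of these cells in the differences of both cores was not tested.

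**Figure D2:**
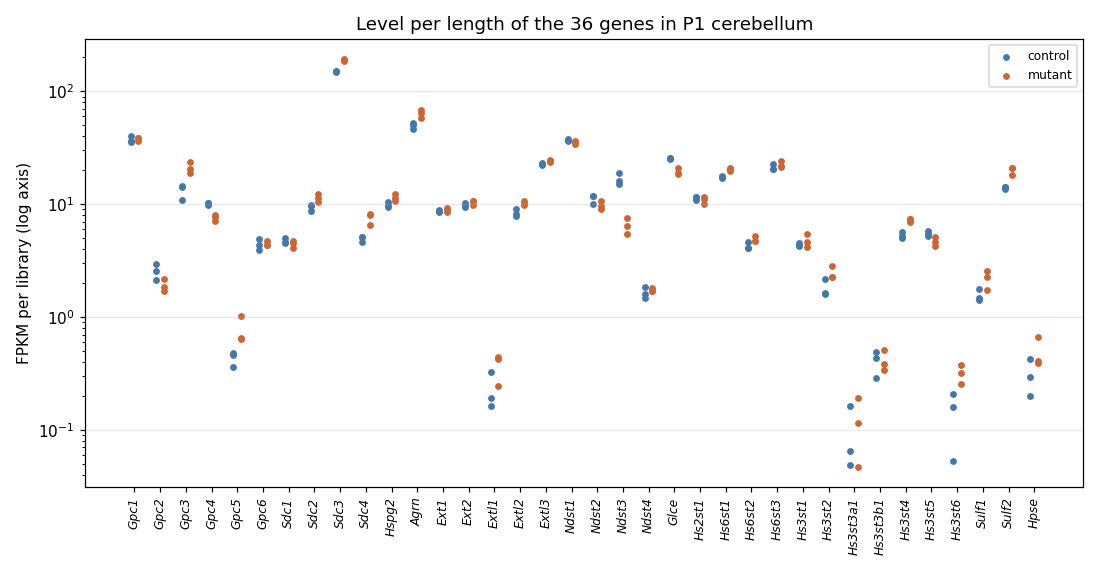
FPKM in each library (y axis, log scale) for all 36 genes (x axis), with controls in blue and mutants in orange. The levels span from *Sdc3*, near 150 FPKM in the controls, to *Hs3st3a1* and *Hs3st6*, which lie under 0.4 FPKM in every library, and *Ndst3* is the gene whose groups lie farthest apart in the downward direction.

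The exostosins polymerize the chain. *Ext1* and *Ext2*, the polymerase pair whose loss gives multiple exostoses, had log2 fold changes of 0.027 and 0.076 (adjusted p = 0.764 and 0.388, edgeR), with 95% intervals from −0.098 to 0.15 and from −0.056 to 0.21. *Extl3*, which starts the chain on the linker and had the highest FPKM of the 5, was at 137, 141 and 140 CPM in the controls and 147, 146 and 151 CPM in the mutants. The groups did not overlap, yet the log2 fold change was 0.087 (SE 0.044) with an adjusted p of 0.184 (edgeR). *Extl2*, which can end chain growth, was at 29.3 ± 2.10 against 35.3 ± 1.28 CPM (SD, n = 3), with a log2 fold change of 0.27 (adjusted p = 0.0356, edgeR). *Extl1*, at under 2 CPM in every library, overlapped between the groups (log2 fold change 0.70, adjusted p = 0.215, edgeR). The summed FPKM of the 5 was 49.96 ± 1.13 in the controls and 54.2 ± 0.359 in the mutants (SD, n = 3).

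N-deacetylase/N-sulfotransferases make the first modification of the chain, on which the later ones depend, and the difference in this family was that of *Ndst3* (ENSMUSG00000027977, chr3:123526166-123690853), an isoform largely restricted to brain. Its level was 152, 189 and 160 CPM in the controls and at 63.1, 76.0 and 54.1 CPM in the mutants. The lowest control was at about 2 times the highest mutant. The fall of 61.5%, or 2.60-fold, was a log2 fold change of −1.38 (SE 0.12, adjusted p = 4.84e-05, edgeR), with a 95% interval from −1.64 to −1.11. It was the 1 gene of the module that stayed called in each of the 16 other fits of its fold change, where it lay between −1.503 and −1.253, and it was also called when the fold was tested against 0.5 itself. *Ndst1*, the broadly expressed isoform and the most abundant of the 4, was at 231, 223 and 225 CPM in the controls and 222, 209 and 218 CPM in the mutants. These did not overlap either, by a narrow margin, and the log2 fold change was −0.067 (SE 0.043, adjusted p = 0.293, edgeR). *Ndst2*, the isoform of mast cell heparin, overlapped at −0.20 (adjusted p = 0.126), and *Ndst4* overlapped at 0.061 (adjusted p = 0.693, 95% interval from −0.16 to 0.28). *Ndst4* lies on the same chromosome as *Ndst3*, 1713222 bases away.

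The FPKM summed over the 4 isoforms went from 66.4, 67.4 and 66.2 in the controls to 54.2, 52.6 and 53.6 in the mutants. *Ndst3* held 23.0%, 28.2% and 24.3% of it in the controls and 11.8%, 14.5% and 10.2% in the mutants, while *Ndst1* held 55.5% ± 1.34 and 66.3% ± 1.34 (SD, n = 3). The share of *Ndst1* was thus higher where its own level was not. Against *Ndst4*, *Ndst3* had 10.3, 10.3 and 9.97 times the FPKM in the controls and 3.77, 4.23 and 3.23 times in the mutants. Markers of differentiating granule neurons, as measured in the same libraries, were called lower in 4 of 8 cases with a median log2 fold change of −0.58, and those of progenitors had a median of −1.26.

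**Figure D3:**
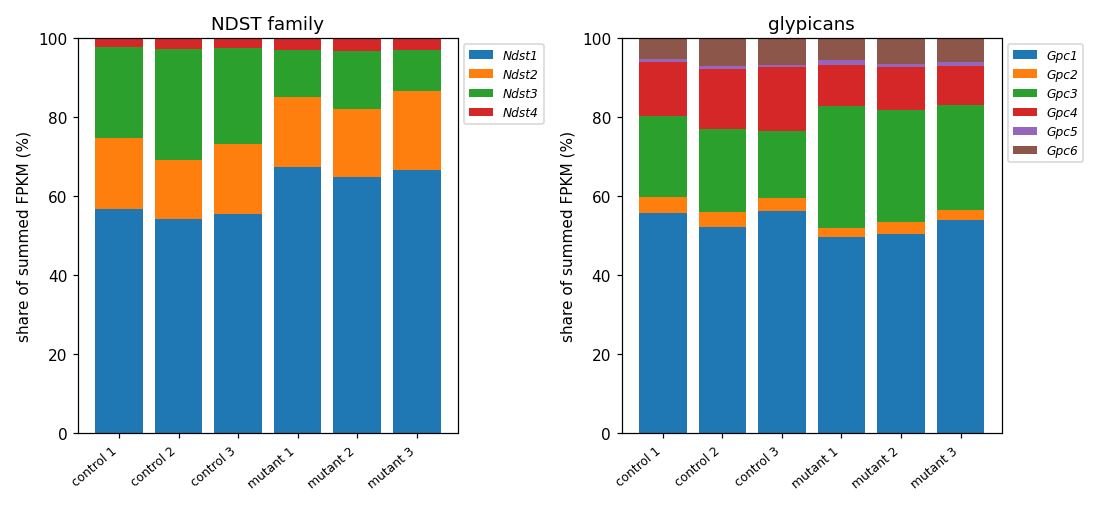
Share of the family's summed FPKM (y axis, percent) held by each N-deacetylase/N-sulfotransferase (left) and each glypican (right) in each of the 6 libraries (x axis). *Ndst3* holds between 23.0% and 28.2% in the controls and between 10.2% and 14.5% in the mutants, and *Gpc3* holds more and *Gpc4* less of the glypicans in every mutant than in any control.

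*Glce* (ENSMUSG00000032252, chr9:62057248-62122655), the epimerase that turns glucuronic into iduronic acid after N-sulfation, was also lower. Its level was 176, 177 and 174 CPM in the controls and at 129, 144 and 128 CPM in the mutants, which was far outside the spread of the controls. The fall of 23.9% was a log2 fold change of −0.39 (SE 0.056, adjusted p = 0.0009, edgeR), short of the fold threshold. *Hs2st1*, the 2-O-sulfotransferase that works on the iduronic acid Glce makes, was at 94.8 ± 3.30 against 90.6 ± 7.07 CPM (SD, n = 3), with overlap and a log2 fold change of −0.066 (adjusted p = 0.498, edgeR, 95% interval from −0.21 to 0.079).

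The 6-O-sulfotransferases add the group that FGF signalling relies on and that the sulfatases remove. *Hs6st3*, the one with the highest FPKM, was at 35.5, 39.2 and 35.1 CPM in the controls and 41.1, 36.6 and 37.2 CPM in the mutants, with overlap and a log2 fold change of 0.066 (SE 0.082, adjusted p = 0.599, edgeR). *Hs6st1*, the broadly expressed enzyme, was at 96.7, 96.0 and 99.6 against 114, 110 and 117 CPM. Its groups did not overlap, and the log2 fold change was 0.22 (SE 0.049, adjusted p = 0.0090, edgeR). Over the 16 other fits (edgeR, DESeq2 or limma) the adjusted p reached 0.0507. The X-linked *Hs6st2* was at 33.6 ± 2.30 and 38.4 ± 2.08 CPM (SD, n = 3), for a log2 fold change of 0.19 with an adjusted p of 0.114.

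3-O-sulfation is the rarest step and has the most isoforms. *Hs3st4*, a neuronal isoform and the one with the highest mean FPKM, was at 16.99, 16.2 and 18.4 CPM in the controls and at 22.4, 23.7 and 23.9 CPM in the mutants. No value was shared between the ranges, and the log2 fold change was 0.44 (SE 0.086, adjusted p = 0.0048, edgeR). Over the 16 other fits (edgeR, DESeq2 or limma) the adjusted p reached 0.0242. *Hs3st5* was at 25.6, 23.96 and 23.1 against 22.2, 20.3 and 18.4 CPM, lower in each mutant, but at a log2 fold change of −0.25 its adjusted p was 0.0778. By share of the family's FPKM, *Hs3st5* led in the controls with 31.2% ± 2.22 and *Hs3st4* held 30.1% ± 1.03, shares within each other's spread, and in the mutants *Hs3st4* held 36.6% ± 3.12 and *Hs3st5* 23.3% ± 1.24 (SD, n = 3). *Hs3st2* was higher in every mutant, at 5.59 ± 1.001 against 7.49 ± 0.953 CPM (SD, n = 3), with a log2 fold change of 0.42 and an adjusted p of 0.104. *Hs3st1*, the isoform that makes the antithrombin site, and *Hs3st3b1* overlapped at 0.094 and 0.0055, and for *Hs3st3b1*, near 2 CPM, the 95% interval ran from −0.65 to 0.66.

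Extracellular sulfatases clip 6-O-sulfate from finished chains and so alter which ligands they hold. *Sulf2* (ENSMUSG00000006800, chr2:166073089-166155663) was at 84.4, 83.7 and 81.0 CPM in the controls and at 124, 108 and 124 CPM in the mutants. The controls lay close together, and mutant 2, the lowest mutant, was still well above them. It rose 1.43-fold, a log2 fold change of 0.52 (SE 0.064, adjusted p = 0.0004, edgeR). The fold was near its threshold: it was 0.50, 0.49 and 0.48 without control 3, mutant 1 and mutant 3 and 0.48 with Y-chromosome expression in the fit as a covariate, each under the threshold before rounding, at an adjusted p of 0.0033 or less. *Ncoa3* overlaps *Sulf2* on the opposite strand, and 2.62% of the exon bases of *Sulf2* are shared with it in the GENCODE annotation of this build. How strand was treated in counting is not given, so reads in these bases cannot be assigned to either. *Sulf1* was at 20.1, 16.7 and 16.1 against 25.4, 20.01 and 28.7 CPM, where mutant 2 fell just below the highest control, with a log2 fold change of 0.49 (adjusted p = 0.0284, edgeR). The summed FPKM of both sulfatases was 15.6 ± 0.465 and 22.3 ± 2.05 (SD, n = 3), of which *Sulf2* held 90.1% and 90.3%. Relative to *Hs6st1*, whose product it removes, *Sulf2* had 0.824, 0.823 and 0.767 times the FPKM in the controls and 1.02, 0.929 and 1.01 times in the mutants. *Hpse*, the heparanase that cuts the chain, was at under 2.4 CPM in every library and overlapped between the groups (log2 fold change 0.66, adjusted p = 0.228, edgeR). Mutant 2, the lowest mutant for both sulfatases and for *Agrn* and *Hspg2*, was also the library with the least *Ttr* and the 1 mutant with high *Xist*. With Y-chromosome expression as a covariate the log2 fold changes were 0.37 for *Sulf1*, 0.30 for *Agrn* and 0.16 for *Hspg2*, and without mutant 2 they were 0.63, 0.41 and 0.26 and that of *Sulf2* was 0.59. Without mutant 2, *Sulf1* was also called (adjusted p = 0.0033, edgeR). The part of choroid plexus RNA in these values was not tested.

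**Figure D4:**
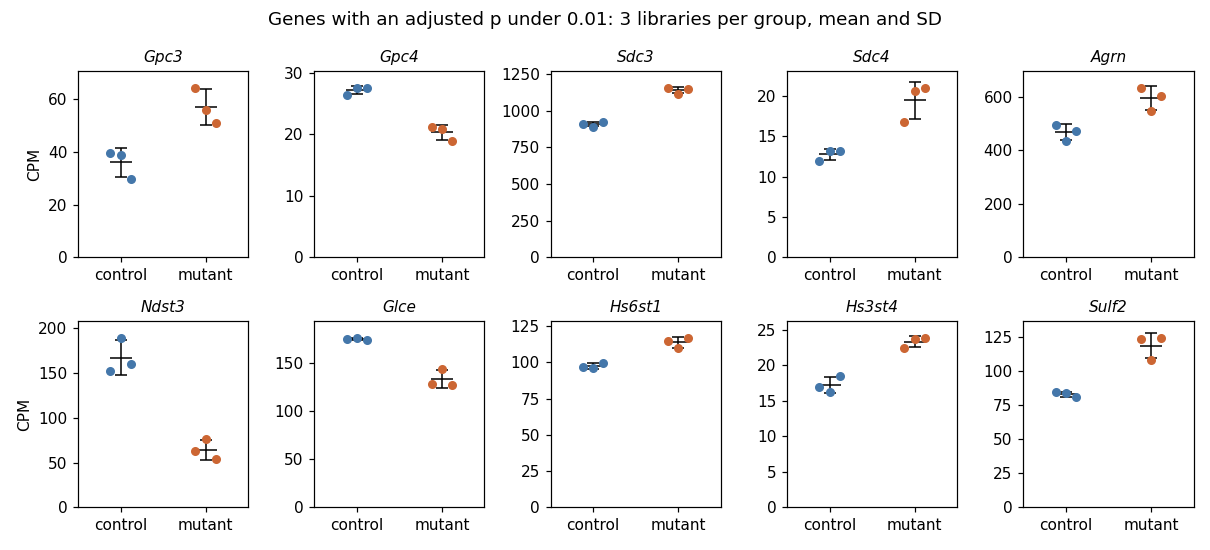
CPM in each of the 3 control and 3 mutant libraries (y axis, from 0) for the 10 genes with an adjusted p under 0.01, with the mean as a bar and the SD as error bars. In all 10 the mutant points lie on one side of the control points, below for *Gpc4*, *Ndst3* and *Glce* and above for the other 7. The genes were picked by that p from the same libraries, so this separation is no separate support.

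Genes around the module were taken from 7 lists. In the synthesis of the linker on which both heparan and chondroitin sulfate start, 0 of 7 genes were called by edgeR and 0 by DESeq2. An unadjusted p under 0.05 held for 3 and an adjusted one for 2, both higher, beside 12.2% of all tested genes. *Xylt1*, the xylosyltransferase that begins this synthesis, was at 52.0 ± 5.18 against 69.6 ± 3.05 CPM (SD, n = 3), for a log2 fold change of 0.42 (adjusted p = 0.0036, edgeR). The groups overlapped for all 7 tested genes of sulfate and sugar donor supply, of which 0 had an unadjusted p under 0.05 (edgeR) and 0 were called by DESeq2. Of 8 tested genes of lysosomal heparan sulfate breakdown 3 had an unadjusted p under 0.05, but 0 had an adjusted one by edgeR or by DESeq2, with a median log2 fold change of 0.19 and a maximum of 0.35. Among 6 genes listed as other carriers of the chain, 1 was called lower. This was *Col18a1*, the collagen XVIII of basement membranes, which fell from 136, 121 and 129 CPM to 87.9, 80.9 and 80.1 CPM, a log2 fold change of −0.64 (SE 0.062, adjusted p = 0.0001, edgeR). *Tsku*, a small secreted leucine-rich protein, was at −0.497 (adjusted p = 0.0021, edgeR), just short of the fold threshold, and was not called. Basement membrane carriers thus differed in direction, with *Col18a1* below and *Agrn* above. The study names *Col18a1* as a target of Tox3 that is enriched in granule neuron progenitors. It also reports *Col18a1* as lower in embryonic cerebella lacking *Atoh1*. In its reporter assays in cultured cells, the *Col18a1* enhancer was strongly active only with TOX3 and Atoh1 together. The part of granule neuron progenitors in the fall of *Col18a1* was not tested.

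Of 10 binding partners, *Shh*, which is made by Purkinje cells, was called higher, from 3.58, 4.49 and 4.24 CPM to 7.50, 5.996 and 7.66 CPM, a log2 fold change of 0.78 (SE 0.17, adjusted p = 0.0083, edgeR), and none was called lower. At the looser threshold of 0.05, passed by 12.9% of all tested genes downward and 12.2% upward, 2 of the 10 were lower and 3 higher. Chondroitin sulfate, the sister chain made from the same linker, gave 1 call among 15 tested enzymes, the 6-O-sulfotransferase *Chst3* (17.3, 14.2 and 18.8 against 26.1, 26.8 and 26.5 CPM, log2 fold change 0.66, adjusted p = 0.0017, edgeR). Of its 9 core proteins, 0 were called by edgeR and 0 by DESeq2, and 7 had an unadjusted p under 0.05. An adjusted p of 0.01 was passed by 3 and one of 0.05 by 4, all of them higher. Of all tested genes, 6.55% and 12.2% were higher at these adjusted thresholds. The 3 were *Bcan*, *Ncan* and *Cspg5*, proteoglycans of the brain matrix, at log2 fold changes of 0.47, 0.43 and 0.37 (adjusted p = 0.0007, 0.0004 and 0.0013, edgeR). The median over these 9 was 0.35, beside 0.24 over the 12 heparan sulfate cores.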

How the data were processed

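Bulk RNA-seq counts of 3 control and 3 mutant P1 cerebella were compared, grouped by their labels. Per the study's methods and the submitters' processing notes, the authors filtered paired-end reads, aligned them to mm10 with HISAT2 2.0.5 and counted them per gene with featureCounts 1.5.0-p3. The deposited counts are not normalized, and in the deposited FPKM table the authors had divided counts by gene length and library size. The annotation release, strand setting and treatment of multi-mapped reads are not given in the sources used here, so overlapping genes and close paralogs may share reads. No value column lacked a sample.

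Counts were filtered (filterByExpr), scaled (TMM) and fitted (glmQLFit, glmQLFTest) by edgeR 4.0.16 under R 4.3.3, with Benjamini-Hochberg adjustment over all 17505 tested genes. Calls used the study's thresholds, 0.01 for the adjusted p and 0.5 for the log2 fold change. The labels call the controls littermates but do not say which animals shared a litter, and the main fit has no litter term. Its p-values set the group difference against the spread between libraries of the same group. With 3 against 3, a permutation of labels cannot reach 0.05, so no permutation test was run. Same-group libraries differed beyond sampling noise (chi-square per gene 3.66 to 10.2). The family shares use FPKM and carry no test. The promoter windows came from a RefSeq table, and exon overlap from GENCODE vM21.

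The 36 genes, the surrounding lists and the marker lists were chosen with earlier results of these data known. Called genes and the most abundant gene of each role were given in full, other genes with an adjusted p under 0.05 by level and fold, the rest by range or fold, and up to 3 genes by p from each surrounding list. Alternatives were DESeq2 1.42.0, other scalings and filters, limma-trend (limma 3.58.1) on log2 FPKM with a pseudocount of 1 or 0.1, removal of a trend with gene length, a Y-chromosome covariate, a replicate block, leaving out single libraries, and other thresholds. The fits were tested on simulated counts in several fixed draws.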

Additional observations from a re-analysis of the deposited data

How the results depend on the processing

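*Ndst3* was called lower under every alternative run, as 1 of 3 genes where the threshold was an adjusted p under 0.05 at any fold and alone in the others. The number called higher, 3, was 3 with DESeq2, other scalings and filters and the length trend removed, 2 with the Y-chromosome covariate, 0 with limma-trend on log2(FPKM + 1), 1 on log2(FPKM + 0.1), 12 at an adjusted p under 0.05 and any fold (12.2% of all tested genes), and 0 when the fold was tested against 0.5. Leaving out 1 library gave 0 to 4, with 0 without control 3, 1 without mutant 1 and 1 without mutant 3. In the lists around the module, an adjusted p under 0.05 and any fold gave 4 lower and 14 higher in place of 1 and 2, where 12.9% and 12.2% of all tested genes passed. Signs turned only near 0. With the Y-chromosome covariate *Gpc1* was at −0.019 and *Hs3st3b1* at −0.042, and leaving out 1 library ranged from −0.020 to 0.067 for *Gpc1*, from −0.062 to 0.10 for *Gpc6*, from −0.010 to 0.15 for *Ndst4*, from −0.015 to 0.18 for *Hs3st1* and from −0.19 to 0.17 for *Hs3st3b1*. The cause was not tested. The difference in share lay between −14.2 and −11.5 percentage points for *Ndst3* and between 7.86 and 10.2 for *Gpc3*. Same-numbered libraries correlated at 0.243, 0.265 and −0.163 in their deviations from the group means, and control 1 with mutant 3 at 0.268. Some of these pairs also differed in *Xist* level, so the correlations cannot show whether replicate numbers mark pairs. With the replicate block 1 gene was called lower and 3 higher, with *Ndst3* at −1.38 (SE 0.064). Depth limits *Hs3st3a1* and *Hs3st6*, at 13 counts or fewer in every library.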
